A study of Mus musculus with 22 samples.

Results

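The guanylin axis and the chloride secretion pathway were followed in the distal colon through 9 genes of the 46078 in the count table. The members were taken by gene symbol. They were the peptide hormone genes Guca2a and Guca2b, the receptor gene Gucy2c, the kinase gene Prkg2, the chloride channel genes Cftr and Best2, the cotransporter gene Slc12a2, and the potassium channel genes Kcnq1 and Kcne3. Each symbol matched 1 row, and all 9 genes passed the filter on low counts in each of the comparisons between groups.

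Poly(A) RNA of distal colon was sequenced from 22 mice in 3 groups. The C57BL/6 group held 8 wild-type control mice aged 14 weeks, 4 male and 4 female. The Winnie group held 7 mice aged 14 weeks, 3 male and 4 female, labelled as inflamed. Winnie mice carry a missense mutation in Muc2, the gene of the main colonic mucin, and develop colitis without treatment. The Winnie-Prolapse group held 7 Winnie mice aged 18 weeks, 4 male and 3 female, labelled as severely inflamed. Age and prolapse cannot be told apart in that group. The study's methods describe fewer Winnie mice for the colon RNA than the labels do and no mice with prolapse, and the labels were followed here. The comparisons asked which genes differed in Winnie colitis and in Winnie colitis with prolapse.

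Guanylin, encoded by Guca2a, and uroguanylin, encoded by Guca2b, are small peptides released into the gut lumen. They bind guanylate cyclase C, the product of Gucy2c, on the apical face of intestinal epithelial cells and raise cyclic GMP. Cyclic GMP activates the membrane-bound kinase encoded by Prkg2, which phosphorylates the chloride channel CFTR. Chloride enters the cell from the blood side through the sodium, potassium and chloride cotransporter NKCC1, encoded by Slc12a2, and water follows the chloride that leaves through the apical membrane. The basolateral potassium channel formed by KCNQ1 and its subunit KCNE3 recycles potassium and keeps the driving force for chloride exit. Bestrophin 2, encoded by Best2, is an anion channel of colonic goblet cells that has been linked to bicarbonate secretion.

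The 2 hormone genes are neighbours on chromosome 4 of GRCm38, separated by 17135 bases and read from opposite strands. Guca2a (ENSMUSG00000023247) lies at chr4:119637704-119639471 on the plus strand and Guca2b (ENSMUSG00000032978) at chr4:119656607-119658954 on the minus strand. Both hormones are cut from the end of a longer precursor. The last 45 coding bases and the stop codon of each gene are shown because this end carries the cysteines that fold the active peptide. They lie in exon 3 of 3, at chr4:119639228-119639275 (plus strand) for Guca2a and chr4:119656792-119656839 (minus strand) for Guca2b, and cysteine codons are in capitals.
Guca2a: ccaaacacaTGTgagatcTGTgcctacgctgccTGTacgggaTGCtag
Guca2b: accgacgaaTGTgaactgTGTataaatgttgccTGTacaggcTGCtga
The 4 cysteine codons stood at the same places in both genes, and 30 of the 48 bases (62.5%) were identical.

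The 250 bases before the RefSeq start sites (GRCm38.p6) are shown for the same pair, since the 2 neighbours stood far apart in level per kb. They cover chr4:119637482-119637731 for Guca2a and chr4:119658946-119659195 for Guca2b, each written in the direction of its gene. Both windows reach past the GENCODE starts of the genes (119637704 and 119658954), and positions below count from the RefSeq starts.
Guca2a: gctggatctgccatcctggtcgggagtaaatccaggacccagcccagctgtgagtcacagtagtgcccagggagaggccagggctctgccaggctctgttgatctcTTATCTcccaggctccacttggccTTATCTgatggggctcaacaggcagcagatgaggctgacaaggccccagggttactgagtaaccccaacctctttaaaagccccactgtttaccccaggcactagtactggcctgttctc
Guca2b: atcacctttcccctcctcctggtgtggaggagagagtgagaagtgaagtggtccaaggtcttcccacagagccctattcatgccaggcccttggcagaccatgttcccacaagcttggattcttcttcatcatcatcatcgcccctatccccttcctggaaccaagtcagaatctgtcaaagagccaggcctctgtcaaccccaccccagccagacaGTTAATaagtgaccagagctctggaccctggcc
The letter strings given here were searched on both strands of windows of 300 bases (250 before and 50 after the start). The string AGATAA, at which GATA factors bind, matched on the reverse strand of Guca2a with first bases at -144 and -120 from the start site, and 11.2% of 32851 promoter windows held it. GTTAAT, the core of HNF1 sites, matched in Guca2b on its own strand at -33, and 7.1% of windows held it. TATAAA (13.6% of windows), TTTATG (11.9%) and CAAAGTCCA (0.475%), the core strings of the TATA box, CDX2 and HNF4, had no match in either window. Capitals mark the matches, which overlapped no other match. RefSeq windows were found for 4 of the 9 members, the others being Cftr and Kcne3.

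The other members lie on chromosomes 5 to 8 and 18 of GRCm38. They are Gucy2c (ENSMUSG00000042638, chr6:136697284-136781765), Prkg2 (ENSMUSG00000029334, chr5:98929773-99037351), Cftr (ENSMUSG00000041301, chr6:18170687-18322768), Slc12a2 (ENSMUSG00000024597, chr18:57878678-57946821), Best2 (ENSMUSG00000052819, chr8:85007202-85014531), Kcnq1 (ENSMUSG00000009545, chr7:143106362-143427042) and Kcne3 (ENSMUSG00000035165, chr7:100176502-100184869). Antisense genes overlap Cftr (Gm15592), Kcnq1 (among them Kcnq1ot1) and Kcne3 (Gm34821). The strand setting of the counting is not given in the sources used here, so reads of these genes and of their antisense partners cannot be told apart.

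Library totals ran from 24.8 to 36.3 M counts, so 3 counts, the limit that a count of 0 allows, correspond to 0.0825 to 0.121 CPM (the read count scaled to the library total). These limits and all CPM values rest on reads, not on single molecules, and cover counting error only. The summed level of 7 epithelial markers (Epcam, Cdh1, Krt8, Krt18, Krt19, Cldn7 and Vil1) was 9057 to 10832 CPM in C57BL/6, 9549 to 13209 in Winnie and 7678 to 13238 in Winnie-Prolapse libraries. Winnie-Prolapse replicate 6 had 18% of its counts in 6 milk protein and mammary genes (Csn2 and Csn1s1 the highest), against at most 0.00542% in any other library. Since CPM is scaled to the library total, these reads lower the CPM of every other gene in that library. It held the lowest Guca2a, Guca2b and Best2 CPM of the Winnie-Prolapse group. In bulk tissue, fewer cells of a type and less RNA per cell cannot be told apart.

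C57BL/6 replicate 7, a female, stood apart from the other 21 libraries in genes that mark position along the colon. Hoxd13, a homeobox gene of the hindmost gut, had 0.217 CPM (6 counts) there against 110.6 to 287.6 CPM in the others. Hoxb13 had 16.4 CPM against 177.4 to 612.5, Hoxd12 had 0 counts against 2.63 to 21.9 CPM, Hoxd11 had 0.543 CPM against 7.90 to 40.0, and Hoxd10 had 1.16 CPM against 8.76 to 50.1. Hoxa13, at 86.6 CPM, lay within the 29.8 to 103 CPM of the other libraries. These Hox genes were chosen after their values were seen. The library labelled distal colon therefore goes against its label in 5 of these 6 genes. The members' main edgeR comparisons with C57BL/6 are thus given with and without it. Calls of the gene lists that depend on it are named beside them. Other fits with C57BL/6, among them those in females and those scaled to epithelial markers, include it unless stated.

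Guca2a, Guca2b, Prkg2 and Best2 were far from the rest of their group in that library. Guca2a stood at 2270 CPM, 10.2 times the median of the other 7 C57BL/6 libraries (range 120.9 to 482.7). Prkg2 stood at 36.8 CPM, 79.4 times their median (range 0.236 to 0.795). Guca2b stood at 26.1 CPM (the others 6.36 to 9.94) and Best2 at 1.99 CPM (the others 53.0 to 128.4). Gucy2c, at 253.5 CPM, was above and Kcnq1, at 43.6 CPM, below all 7 others by a small margin, and Cftr, Slc12a2 and Kcne3 lay within their range.

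**Figure D1:**
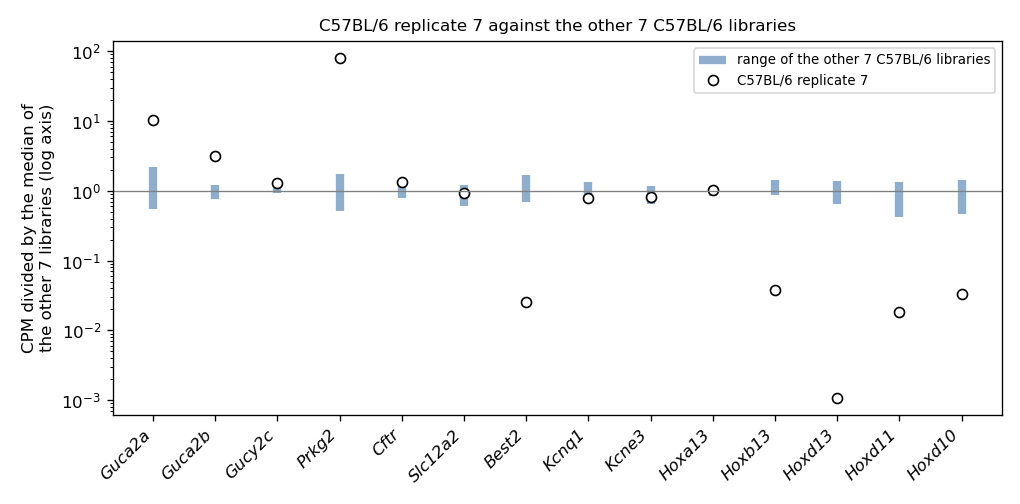
Level of each member and of 5 Hox genes in C57BL/6 replicate 7 (open points) and the range of the other 7 C57BL/6 libraries (bars), as CPM divided by the median of those 7, on a log axis. Prkg2 (79.4 times) and Guca2a (10.2 times) lie above the bars, and Best2 and 4 of the 5 Hox genes drawn (all but Hoxa13) lie far below them. Hoxd12, with 0 counts in replicate 7, has no place on a log axis.

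To compare levels between genes, CPM was divided by the length of all exons of the gene (CPM per kb). Guca2a had the highest median level in each group, at 373.3 CPM per kb in the 7 C57BL/6 libraries without replicate 7, 297.5 in Winnie and 108.6 in Winnie-Prolapse. Guca2b was far lower at 9.55, 9.24 and 8.34 CPM per kb in the same order. The receptor gene Gucy2c had 49.4, 46.9 and 36.2 CPM per kb. In the same 7 C57BL/6 libraries the median order was Guca2a, Kcne3 (81.2), Gucy2c (49.4), Best2 (34.7), Slc12a2 (20.9), Kcnq1 (13.7), Guca2b (9.55), Cftr (8.51) and Prkg2 (0.0862). Ranges of neighbours overlapped from Kcne3 down to Kcnq1 and between Guca2b and Cftr, while Guca2a lay above, and Prkg2 below, every other member without overlap. In Winnie-Prolapse the lowest Guca2a library (44.8) was within the range of Kcne3 (39.8 to 61.8). In Winnie-Prolapse libraries the order changed at 2 places, with Slc12a2 (29.8) before Best2 (15.6) and Guca2b (8.34) before Kcnq1 (7.46), and both pairs overlapped.

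**Figure D2:**
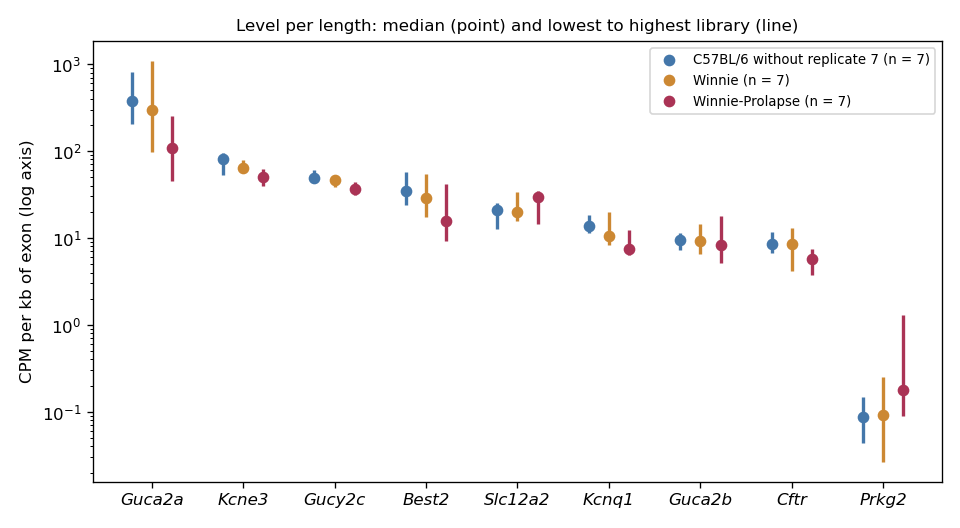
Level per length of each member in the 3 groups, in CPM per kb of exon on a log axis, with the median as a point and the lowest to the highest library as a line. Guca2a has the highest median in every group and Prkg2 the lowest, and Slc12a2 is the gene whose median is highest in Winnie-Prolapse apart from Prkg2.

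A first and a second rule were used to call a difference in the edgeR quasi-likelihood test. The study's own rule was an adjusted p under 0.001 and at least 1.5-fold, and the second rule took an adjusted p under 0.05 with the same fold. P-values were adjusted by Benjamini-Hochberg over all genes tested. Between Winnie and C57BL/6, 0 of the 9 members were called under the first rule, which called 0.0925% of 17289 genes, and 0 under the second, which called 15.9%. At an unadjusted p under 0.05 the count was 1 member (Prkg2), and DESeq2 called 0 and limma-voom 0. Of all genes, 6901 had an unadjusted p under 0.05, DESeq2 called 1258 and limma-voom 0. Without C57BL/6 replicate 7 the counts were again 0 and 0 of 9, with 0.186% and 16.3% of 17196 genes called, and 0 members had an unadjusted p under 0.05.

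Between Winnie-Prolapse and C57BL/6, 1 of 9 members (Kcnq1, lower) passed the first rule, against 18.3% of 17397 genes. Under the second rule 4 members passed, with Guca2a, Cftr and Kcnq1 lower and Slc12a2 higher, against 34.4% of genes. Both shares were near those of all genes. Without C57BL/6 replicate 7 the counts were 1 (20.1% of 17295 genes) and 5 (35.3%), the fifth being Prkg2, higher. The median log2 fold change of the 9 members was -0.48, and -0.50 without replicate 7, beside -0.01 and 0.01 over all genes.

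Between Winnie-Prolapse and Winnie, 0 of 9 members passed the first rule, as did 0% of 17041 genes (0 genes). In this comparison 6 members and 4743 of all genes had an unadjusted p under 0.05, DESeq2 called 0 members and 678 genes, and limma-voom called 0 of both. Under the second rule 1 member, Guca2a, was called lower, against 6.99% of genes. The same Winnie and C57BL/6 libraries enter several comparisons, so the 3 comparisons are not independent.

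**Figure D3:**
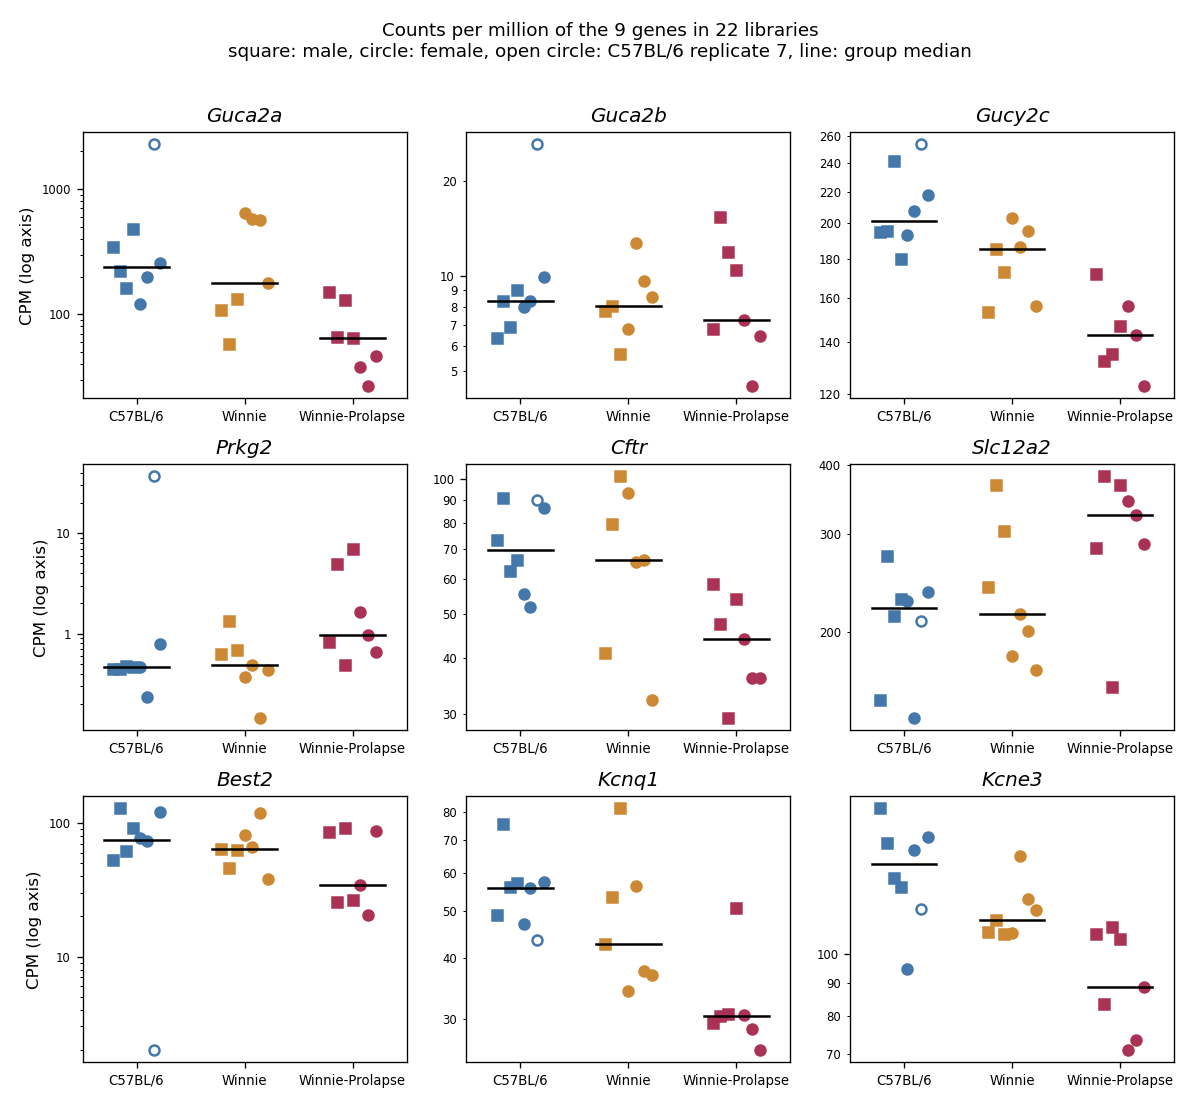
CPM of the 9 members in each of the 22 libraries, on log axes that differ between panels. Squares are males, circles females, the open circle is C57BL/6 replicate 7 and lines are group medians. In Gucy2c all 7 Winnie-Prolapse points lie below all 8 C57BL/6 points, and in the other panels the groups overlap.

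Guca2a, the guanylin gene, fell in Winnie-Prolapse against C57BL/6 under the second rule. It ranged from 120.9 to 2270 CPM in C57BL/6 (median 238.1, mean 506.7 ± 721.5 SD, n = 8). Without replicate 7 the range was 120.9 to 482.7 CPM (mean 254.8 ± 123.4, n = 7). Winnie libraries ran from 57.5 to 641.2 CPM (median 176.7, mean 322.3 ± 257.1, n = 7) and Winnie-Prolapse libraries from 26.6 to 149.2 CPM (median 64.5, mean 74.3 ± 47.1, n = 7). Winnie libraries reached both above and below the C57BL/6 range once replicate 7 was set aside, whereas 2 Winnie-Prolapse libraries (149.2 and 130.0 CPM) were above the lowest C57BL/6 library and the other 5 were below all of them. The log2 fold change of Winnie-Prolapse against C57BL/6 was -2.70 ± 0.66 (SE, adjusted p = 0.00298 by edgeR), and -1.68 ± 0.39 (adjusted p = 0.00222) without replicate 7. It passed the second rule in all 15 fits that left out 1 library (adjusted p 0.00214 to 0.00778).

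Against Winnie, Guca2a in Winnie-Prolapse had a log2 fold change of -2.14 ± 0.58 (adjusted p = 0.0363 by edgeR). The call was kept in 6 of 14 fits that left out 1 library, and was lost without Winnie replicate 4, 5 or 6 or Winnie-Prolapse replicate 2, 4, 5, 6 or 7 (log2 fold change -1.87 to -2.09, adjusted p 0.0601 to 0.0783). It was also lost with limma-voom (-1.85, adjusted p = 0.0616), with sex as a covariate (-1.81, adjusted p = 0.152) and in males alone. Between Winnie and C57BL/6 the direction turned with replicate 7, from -0.54 ± 0.68 (adjusted p = 0.574) to 0.45 ± 0.50 (adjusted p = 0.516) without it. The spread among the 7 Winnie libraries was wider than the difference in either case.

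Guca2b, the uroguanylin gene, passed no test. It ran from 6.36 to 26.1 CPM in C57BL/6 (median 8.32, n = 8), from 5.67 to 12.7 in Winnie (median 8.04, n = 7) and from 4.47 to 15.4 in Winnie-Prolapse (median 7.26, n = 7). Without replicate 7 the highest C57BL/6 library was at 9.94 CPM, and the Winnie-Prolapse libraries reached both above and below the other groups. The log2 fold changes were -0.21 ± 0.28 for Winnie and -0.16 ± 0.31 for Winnie-Prolapse against C57BL/6 (adjusted p = 0.608 and 0.686 by edgeR). Both turned positive without replicate 7, to 0.15 ± 0.16 and 0.21 ± 0.20 (adjusted p = 0.519 and 0.386). The ratio of Guca2a to Guca2b per kb ran from 22.2 to 79.7 in the 7 other C57BL/6 libraries (127.5 in replicate 7), from 10.5 to 138.3 in Winnie and from 6.25 to 32.1 in Winnie-Prolapse, so the ranges of the first and the last group overlapped.

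Gucy2c, the gene of the guanylin receptor, was lower in Winnie-Prolapse than in C57BL/6 by less than 1.5-fold. It ran from 179.6 to 253.5 CPM in C57BL/6 (median 201.7, mean 210.4 ± 25.5, n = 8), from 153.4 to 203.6 in Winnie (median 185.5, mean 179.1 ± 19.1, n = 7) and from 122.7 to 172.1 in Winnie-Prolapse (median 143.3, mean 144.1 ± 16.4, n = 7). All 7 Winnie-Prolapse libraries were below all 8 C57BL/6 libraries, the one pair of groups that did not overlap in any member. The share of all genes without overlap between these groups is not given, so this is a description only. The log2 fold change was -0.46 ± 0.11 (adjusted p = 0.00203 by edgeR), or -0.41 ± 0.10 (adjusted p = 0.00361) without replicate 7. At that fold neither rule called it. Scaled to epithelial markers it was -0.63 ± 0.11 (adjusted p = 0.000131) and passed the first rule. Winnie against C57BL/6 gave -0.15 ± 0.10 (adjusted p = 0.265; -0.11 ± 0.09 without replicate 7, adjusted p = 0.401) and Winnie-Prolapse against Winnie -0.31 ± 0.11 (adjusted p = 0.0834).

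Prkg2, the gene of the cyclic GMP kinase that acts on CFTR, was close to the counting floor in most libraries. Outside C57BL/6 replicate 7 it had 0.236 to 0.795 CPM in C57BL/6 (median 0.463, n = 7), 0.144 to 1.35 in Winnie (median 0.492, n = 7) and 0.484 to 6.91 in Winnie-Prolapse (median 0.967, n = 7). Its counts were 6 to 24 in those C57BL/6 libraries and 5 to 42 in Winnie. Winnie-Prolapse replicates 2 (153 counts) and 4 (209 counts), both male, were the highest after C57BL/6 replicate 7 (1015 counts).

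The direction of every comparison of Prkg2 with C57BL/6 turned with replicate 7. With it the log2 fold changes were -3.03 ± 1.16 for Winnie (adjusted p = 0.0638 by edgeR) and -1.13 ± 1.12 for Winnie-Prolapse (adjusted p = 0.408). Without it they were 0.35 ± 0.35 (adjusted p = 0.472) and 2.28 ± 0.54 (adjusted p = 0.00247), so Prkg2 rose in Winnie-Prolapse under the second rule. DESeq2, which replaces outlying counts in groups of this size, gave 2.19 with all libraries (adjusted p = 6.72e-05). Winnie-Prolapse against Winnie, which uses no C57BL/6 library, gave 1.93 ± 0.59 (adjusted p = 0.0533), and passed the second rule in 4 of 14 fits that left out 1 library.

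Cftr, the gene of the apical chloride channel opened by cyclic nucleotide signalling, fell in Winnie-Prolapse against C57BL/6 under the second rule. It ran from 52.0 to 91.0 CPM in C57BL/6 (median 69.7, mean 72.0 ± 15.5, n = 8), from 32.2 to 101.4 in Winnie (median 66.2, mean 68.4 ± 25.5, n = 7) and from 29.4 to 58.6 in Winnie-Prolapse (median 44.1, mean 43.7 ± 10.5, n = 7). Winnie held the highest library of all, and 2 Winnie libraries (32.2 and 41.0 CPM) were below all C57BL/6 libraries. The log2 fold change of Winnie-Prolapse against C57BL/6 was -0.65 ± 0.15 (adjusted p = 0.00158 by edgeR), and -0.59 ± 0.14 (adjusted p = 0.00275) without replicate 7. Without Winnie-Prolapse replicate 3 it was -0.58, just under 1.5-fold, and the call was lost (adjusted p = 0.00299). Winnie against C57BL/6 gave -0.0044 ± 0.21 (adjusted p = 0.99), or 0.0464 ± 0.21 without replicate 7 (adjusted p = 0.886), and Winnie-Prolapse against Winnie -0.65 ± 0.22 (adjusted p = 0.0716).

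Best2, the goblet cell anion channel gene, passed no test. It ran from 53.0 to 128.4 CPM in the 7 C57BL/6 libraries other than replicate 7 (median 77.0), from 38.4 to 119.2 in Winnie (median 63.4) and from 20.4 to 91.5 in Winnie-Prolapse (median 34.6). The Winnie-Prolapse libraries fell apart into 3 between 86.3 and 91.5 CPM (replicates 1, 3 and 7) and 4 between 20.4 and 34.6 CPM (replicates 2, 4, 5 and 6). In Winnie-Prolapse against C57BL/6 the log2 fold change was -0.40 ± 0.55 (adjusted p = 0.557 by edgeR), and -0.58 ± 0.37 (adjusted p = 0.197) without replicate 7. Winnie against C57BL/6 gave -0.06 ± 0.48 (adjusted p = 0.937) and -0.25 ± 0.25 without replicate 7 (adjusted p = 0.467). The summed level of 8 goblet cell markers was 4264 to 5349 CPM in those 4 libraries, 6734 to 13633 CPM in the other 3 and 10924 to 16374 CPM in C57BL/6, and its part in the Best2 values was not tested.

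Slc12a2 is the gene of the basolateral cotransporter that loads chloride into the cell. It rose in Winnie-Prolapse against C57BL/6 under the second rule. With all libraries it was the one member that edgeR called higher, whereas DESeq2 also called Prkg2. It ran from 139.8 to 274.5 CPM in C57BL/6 (median 221.0, mean 210.3 ± 44.8, n = 8), from 170.9 to 368.0 in Winnie (median 215.2, mean 240.2 ± 71.7, n = 7) and from 159.4 to 381.7 in Winnie-Prolapse (median 325.6, mean 307.4 ± 75.0, n = 7). In Winnie-Prolapse 6 of 7 libraries were above all 8 C57BL/6 libraries, and replicate 3 was at 159.4 CPM. The log2 fold change was 0.63 ± 0.16 (adjusted p = 0.00361 by edgeR), and 0.63 ± 0.17 (adjusted p = 0.0049) without replicate 7. The fold sits near 1.5, and the call was lost without C57BL/6 replicate 1 (0.58) or 6 (0.57) or Winnie-Prolapse replicate 6 (0.57). It was also lost when libraries were scaled to epithelial markers (0.46, adjusted p = 0.0663) or to their totals without TMM (0.56, adjusted p = 0.0144), and in males alone (0.46, adjusted p = 0.161). Winnie against C57BL/6 gave 0.26 ± 0.16 (adjusted p = 0.217), which was 0.26 ± 0.16 without replicate 7 (adjusted p = 0.235) and -0.0033 with the scaling to epithelial markers. Winnie-Prolapse against Winnie gave 0.37 ± 0.18 (adjusted p = 0.19).

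The ratio of Slc12a2 to Cftr per kb set the entry and the exit step of chloride beside each other within a library. It ran from 1.46 to 2.92 in C57BL/6 (mean 2.12 ± 0.475, n = 8), from 1.38 to 4.19 in Winnie (mean 2.75 ± 1.01, n = 7) and from 3.45 to 6.43 in Winnie-Prolapse (mean 5.07 ± 1.08, n = 7). The Winnie-Prolapse and C57BL/6 libraries did not overlap in this ratio. It was formed after the values were seen and is given without a test.

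Kcnq1, the pore subunit of the basolateral potassium channel, was the 1 member called under the first rule, lower in Winnie-Prolapse than in C57BL/6. It ran from 43.6 to 75.5 CPM in C57BL/6 (median 55.9, mean 55.2 ± 9.72, n = 8), from 34.3 to 81.2 in Winnie (median 42.8, mean 48.9 ± 16.5, n = 7) and from 25.9 to 50.8 in Winnie-Prolapse (median 30.5, mean 32.4 ± 8.30, n = 7). In Winnie-Prolapse 6 of 7 libraries lay between 25.9 and 30.8 CPM, below all C57BL/6 libraries, and replicate 4 stood at 50.8 CPM. The log2 fold change was -0.69 ± 0.13 (adjusted p = 0.000373 by edgeR), and -0.72 ± 0.13 (adjusted p = 0.000255) without replicate 7. In 10 of 15 fits that left out 1 library it passed the first rule, and in the other 5 (without C57BL/6 replicate 3, 6 or 8 or Winnie-Prolapse replicate 2 or 5) the adjusted p was 0.001 to 0.00144. Winnie-Prolapse against Winnie gave -0.58 ± 0.17 (adjusted p = 0.0468), under 1.5-fold, and Winnie against C57BL/6 -0.11 ± 0.15 (adjusted p = 0.608), or -0.15 ± 0.15 without replicate 7 (adjusted p = 0.459).

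Kcne3, the gene of the regulatory subunit that pairs with KCNQ1 in colonic epithelium, moved less. It ran from 94.7 to 167.7 CPM in C57BL/6 (median 137.7, mean 135.2 ± 22.8, n = 8), from 107.3 to 141.4 in Winnie (median 112.7, mean 116.4 ± 12.2, n = 7) and from 70.8 to 110.0 in Winnie-Prolapse (median 88.7, mean 91.3 ± 16.4, n = 7). Against C57BL/6, Winnie-Prolapse had a log2 fold change of -0.48 ± 0.14 (adjusted p = 0.00822 by edgeR), under 1.5-fold, and -0.50 ± 0.14 without replicate 7 (adjusted p = 0.00857). Scaled to epithelial markers it passed the first rule (-0.68 ± 0.13, adjusted p = 0.000394). Winnie against C57BL/6 gave -0.13 ± 0.11 (adjusted p = 0.399), or -0.16 ± 0.12 without replicate 7 (adjusted p = 0.305), and Winnie-Prolapse against Winnie -0.34 ± 0.12 (adjusted p = 0.088). The ratio of Kcne3 to Kcnq1 per kb overlapped across the groups, at 4.52 to 7.87 in C57BL/6, 3.04 to 7.43 in Winnie and 4.77 to 8.37 in Winnie-Prolapse.

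**Figure D4:**
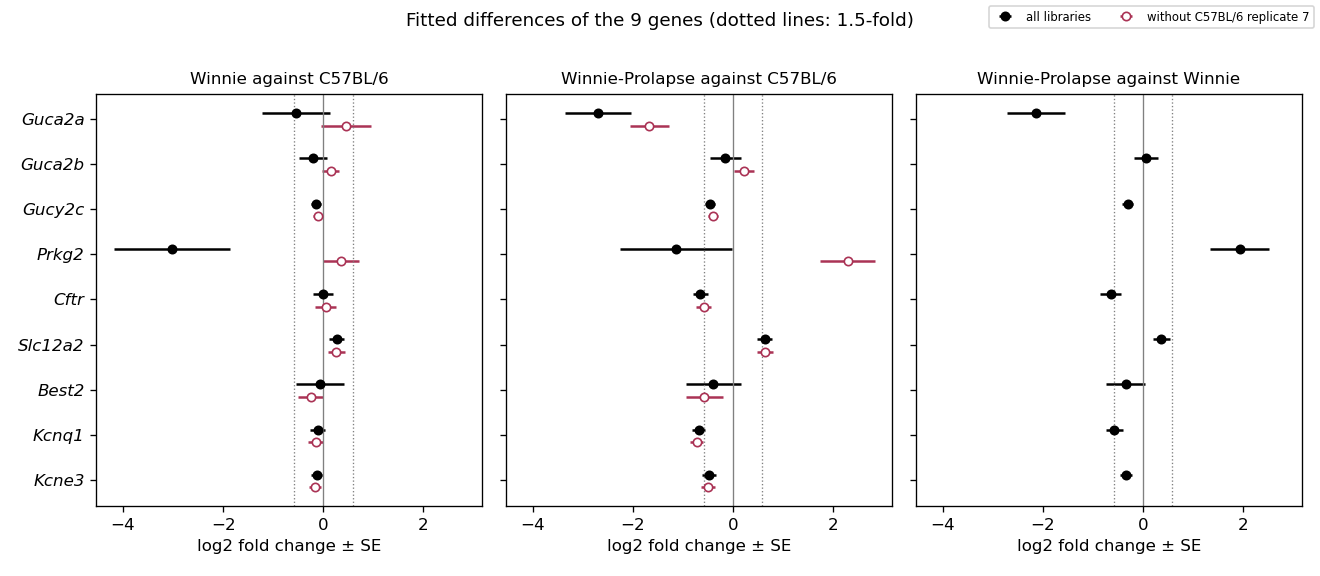
Log2 fold change ± SE of the 9 members in the 3 comparisons, with all libraries (filled) and without C57BL/6 replicate 7 (open), dotted lines at 1.5-fold. Guca2a, Guca2b, Prkg2 and, by a small margin, Cftr cross zero in Winnie against C57BL/6 when replicate 7 is left out, and Prkg2 turns from -1.13 to 2.28 in Winnie-Prolapse against C57BL/6.

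Males and females were compared across the groups and within them. No member differed between males and females in one fit over the 3 groups (0 of 9 at an adjusted p under 0.05, 0.0793% of 18911 genes). The count at an unadjusted p under 0.05 was 1 (Kcnq1, 0.26 ± 0.11 higher in males, adjusted p = 0.961 by edgeR), and DESeq2 called 0. Without C57BL/6 replicate 7 that count was 2, beside 969 of 18866 genes (874 of 18911 with it). For the difference between the sexes in their group effects, edgeR called 0 of 9 members in Winnie against C57BL/6 (0% of genes), 0 in Winnie-Prolapse against C57BL/6 (0%) and 0 in Winnie-Prolapse against Winnie (0.0106%). At an unadjusted p under 0.05 these counts were 1, 3 and 3, and DESeq2 called 1 (Prkg2, adjusted p = 0.0303), 0 and 0. Over all genes 2476, 945 and 2933 had an unadjusted p under 0.05, and DESeq2 called 164, 4 and 240. C57BL/6 replicate 7 is a female. Without it the counts at an unadjusted p under 0.05 were 1, 1 and 3, and the Prkg2 term of the first was 1.33 ± 0.96 (adjusted p = 0.55 by edgeR) in place of 5.58 ± 1.72 (adjusted p = 0.253).

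Guca2a is given by sex, a choice made after its values were seen. In Winnie the 3 males were at 57.5, 108.9 and 133.2 CPM and the 4 females at 176.7, 561.7, 576.9 and 641.2 CPM. In Winnie-Prolapse the 4 males were at 64.5, 65.6, 130.0 and 149.2 CPM and the 3 females at 26.6 (replicate 6, with the milk protein reads), 37.7 and 46.1 CPM. The sexes did not overlap in either group, and their order was opposite. The share of all genes whose sexes separate in these groups is not given, so this is a description only. In C57BL/6 the 4 males (161.0 to 482.7 CPM) and the 3 females other than replicate 7 (120.9, 197.1 and 254.6 CPM) overlapped. Summed surface colonocyte markers ran from 3553 to 6084 CPM in Winnie males and from 7313 to 10466 CPM in Winnie females, without overlap, while in Winnie-Prolapse the males (1863 to 7569 CPM) and the females (1891 to 3715 CPM) overlapped. Summed goblet cell markers overlapped between the sexes in both groups, at 6950 to 9611 CPM in Winnie males and 8785, 9890, 22243 and 23904 CPM in Winnie females, and at 4264, 4296, 10645 and 13633 CPM in Winnie-Prolapse males and 4358 to 6734 CPM in females. Their part in the Guca2a values was not tested. The titles tag the 4 Winnie females with consecutive numbers and the 3 Winnie males otherwise, so sex and tag series cannot be told apart in Winnie.

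The fits within 1 sex differed accordingly. In males, Guca2a had a log2 fold change of -1.57 ± 0.39 in Winnie against C57BL/6 (adjusted p = 0.0178 by edgeR) and 0.09 ± 0.44 in Winnie-Prolapse against Winnie (adjusted p = 0.976). In females the values were -0.43 ± 0.89 (adjusted p = 0.835), with C57BL/6 replicate 7 (2270 CPM) among the controls, and -3.72 ± 0.46 (adjusted p = 0.00277). The negative sign of the first value rests on that library. The other control females were at 120.9 to 254.6 CPM, and the Winnie females at 176.7 CPM and at 561.7 to 641.2 CPM. Against C57BL/6, Winnie-Prolapse had -1.48 ± 0.42 in males (adjusted p = 0.0289) and -4.12 ± 1.16 in females (adjusted p = 0.0309), again with replicate 7. The Winnie-Prolapse females (26.6 to 46.1 CPM) were also below the other control females. The size of the female value depends on replicate 7, and no female fit without it is given. The test of the difference itself, for Winnie-Prolapse against Winnie, gave a log2 difference of 3.79 ± 1.12 between males and females (adjusted p = 0.187 by edgeR over all genes), and 3.79 ± 0.69 (adjusted p = 0.0613) without C57BL/6 replicate 7. DESeq2 gave an adjusted p of 0.0597. None passed 0.05, and this comparison of effects was added after the data were seen. Slc12a2 had Winnie males at 241.5, 303.9 and 368.0 CPM and females at 170.9 to 215.2 CPM, while in Winnie-Prolapse the males (159.4 to 381.7 CPM) and females (288.9 to 344.2 CPM) overlapped, and its test of the same kind gave -0.84 ± 0.30 (adjusted p = 0.232). Guca2b overlapped between the sexes in both groups, at 5.67 to 8.04 CPM in Winnie males, 6.79 to 12.7 in Winnie females, 6.81 to 15.4 in Winnie-Prolapse males and 4.47 to 7.26 in the females, and its test gave 1.24 ± 0.49 (adjusted p = 0.261).

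**Figure D5:**
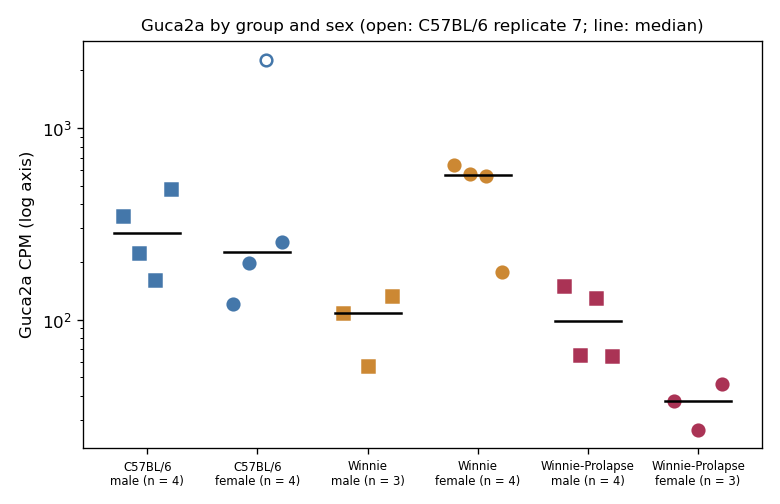
CPM of Guca2a by group and sex on a log axis, with each library as a point, medians as lines and C57BL/6 replicate 7 open. Winnie females (176.7 to 641.2 CPM) lie above Winnie males (57.5 to 133.2 CPM), and Winnie-Prolapse females (26.6 to 46.1 CPM) lie below Winnie-Prolapse males (64.5 to 149.2 CPM). The gene was chosen after its values were seen.

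The other genes of cyclic GMP signalling were followed as a list of 14, of which 2 were found under the older symbols Gucy1a3 and Gucy1b3, and 13 were tested. Beside this and the later lists and markers, the first and second rule called 0.0925% and 15.9% of all genes in Winnie against C57BL/6. These shares were 18.3% and 34.4% in Winnie-Prolapse against C57BL/6, and 0% and 6.99% in Winnie-Prolapse against Winnie. In Winnie-Prolapse against C57BL/6, 2 of the list rose and 3 fell under the first rule (median log2 fold change -0.51 over the list, -0.01 over all genes). Pde9a, a phosphodiesterase that breaks down cyclic GMP, rose from 152.8 to 340.6 CPM in C57BL/6 to 524.2 to 845.8 CPM in Winnie-Prolapse, with no overlap (1.79 ± 0.18, adjusted p = 1.76e-06 by edgeR). Abcc4, an exporter of cyclic nucleotides, rose by 1.16 ± 0.23 (adjusted p = 0.000744). The genes of the 2 subunits of soluble guanylate cyclase, the nitric oxide receptor of smooth muscle, fell by 1.54 (Gucy1a3, SE 0.23, adjusted p = 5.57e-05) and 1.32 (Gucy1b3, SE 0.25, adjusted p = 0.000424). Pde5a, another cyclic GMP phosphodiesterase and abundant in smooth muscle, fell by 0.77 (SE 0.11, adjusted p = 4.34e-05). Slc9a3r1, a scaffold of apical transporters including CFTR, had -0.50 ± 0.25 (adjusted p = 0.0968) and Pde3a -0.16 ± 0.11 (adjusted p = 0.24). The same genes of this list were called without replicate 7 in both comparisons with C57BL/6.

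The same list in Winnie against C57BL/6 had 0 genes called under the first rule and 1 higher and 3 lower under the second. Pde9a rose (0.96 ± 0.24, adjusted p = 0.0114 by edgeR), and Gucy1a3 (-0.84 ± 0.21, adjusted p = 0.0124), Gucy1b3 (-1.03 ± 0.25, adjusted p = 0.00994) and the natriuretic peptide receptor gene Npr1 (-0.90 ± 0.26, adjusted p = 0.0213) fell. In Winnie-Prolapse against Winnie, Pde9a alone was called under the second rule (0.83 ± 0.25, adjusted p = 0.0497) and 0 genes under the first. For the counts of 0 under the first rule, 8 and 5 of the 13 genes had an unadjusted p under 0.05, DESeq2 called 1 and 0, and limma-voom 0 and 0.

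The rest of the chloride secretion machinery was followed in 15 genes, of which 14 were tested. In Winnie-Prolapse against C57BL/6, 1 rose and 1 fell under the first rule (median -0.10), beside 18.3% of all genes called. Fxyd3, a regulator of the sodium pump, rose by 1.02 ± 0.14 (adjusted p = 3.26e-05 by edgeR), and Slc4a4, a sodium bicarbonate cotransporter, fell by 1.64 (SE 0.33, adjusted p = 0.000741). Slc4a4 ran from 160.8 to 413.0 CPM in C57BL/6 without replicate 7 (52.6 CPM in that library), against 49.4 to 113.7 CPM in Winnie-Prolapse. Atp1b1, a beta subunit of the sodium pump, had -0.30 ± 0.23 (adjusted p = 0.288) and the chloride channel gene Clcn2 -0.11 ± 0.32 (adjusted p = 0.794). The calcium-activated chloride channel gene Ano1 fell under the second rule in Winnie-Prolapse against C57BL/6 (-0.81 ± 0.28, adjusted p = 0.0215) and against Winnie (-0.92 ± 0.25, adjusted p = 0.036). In Winnie against C57BL/6, 0 were called under the first rule and Fxyd3 (0.62 ± 0.09, adjusted p = 0.00129) and Slc4a4 (-1.27 ± 0.35, adjusted p = 0.0183) under the second. In Winnie-Prolapse against Winnie, 0 were called under the first rule, and Atp1b3, another beta subunit, rose under the second (0.65 ± 0.19, adjusted p = 0.0444). Without replicate 7 the second rule also called Clcn2 higher in Winnie against C57BL/6 (0.64 ± 0.20, adjusted p = 0.028, against 0.126 with it). The anion exchanger gene Slc4a2, which it called lower in Winnie-Prolapse against C57BL/6 (-0.63 ± 0.20, adjusted p = 0.0133), was then under 1.5-fold (-0.41 ± 0.11, adjusted p = 0.00582). For these counts of 0, 5 and 5 of the 14 genes had an unadjusted p under 0.05, DESeq2 called 1 and 1, and limma-voom 0 and 0.

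Secretagogue receptors and cyclic AMP enzymes made a list of 14, with 13 tested in Winnie-Prolapse against C57BL/6 (median -0.29). Under the second rule 2 rose and 5 fell, and under the first 0 rose and 2 fell, the adenylate cyclase gene Adcy6 (-0.93 ± 0.15, adjusted p = 0.00013 by edgeR) and the muscarinic receptor gene Chrm1 (-1.41 ± 0.22, adjusted p = 9.53e-05). P2ry2, a receptor for extracellular nucleotides, rose under the second rule in Winnie (0.83 ± 0.17, adjusted p = 0.005) and in Winnie-Prolapse (0.78 ± 0.20, adjusted p = 0.00412) against C57BL/6. Vipr1, a receptor for vasoactive intestinal peptide, had -0.18 ± 0.12 (adjusted p = 0.192) and the prostaglandin receptor gene Ptger4 -0.05 ± 0.23 (adjusted p = 0.871) in Winnie-Prolapse against C57BL/6. In Winnie-Prolapse against Winnie the second rule called Adora2b, an adenosine receptor gene, higher (2.43 ± 0.68, adjusted p = 0.0402) and Adcy6 (-0.65 ± 0.16, adjusted p = 0.0247) and Npy1r (-0.75 ± 0.18, adjusted p = 0.0269) lower. In Winnie against C57BL/6 the lower calls under the second rule were Chrm3 (-1.06 ± 0.31, adjusted p = 0.0207) and Vipr2 (-0.66 ± 0.19, adjusted p = 0.0196). Under the first rule 0 were called in either of these comparisons, with 4 of 12 (Winnie against C57BL/6) and 7 of 13 (Winnie-Prolapse against Winnie) at an unadjusted p under 0.05. DESeq2 called 1 and 0 there, and limma-voom 0 and 0. Without replicate 7, Adora2b (3.74 ± 0.59, adjusted p = 0.000106) and Npy1r (-0.82 ± 0.14, adjusted p = 0.00015) passed the first rule in Winnie-Prolapse against C57BL/6 and Ptger2 the second (0.66 ± 0.26, adjusted p = 0.0404). The Vipr2 call in Winnie was then lost, its fold falling just under the limit (-0.52 ± 0.16, adjusted p = 0.0252).

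Of 11 colon epithelial transcription factor genes, 0 were called under the first rule in any of the 3 comparisons, by edgeR, DESeq2 or limma-voom. The median of the list was 0.05 for Winnie and -0.37 for Winnie-Prolapse, each against C57BL/6, and -0.32 between the colitis groups, and 1, 6 and 6 genes had an unadjusted p under 0.05. Under the second rule Atoh1, the secretory lineage factor, fell in Winnie-Prolapse against C57BL/6 (-0.67 ± 0.20, adjusted p = 0.00972 by edgeR) and Hnf4a in Winnie-Prolapse against Winnie (-0.60 ± 0.15, adjusted p = 0.0295). Against C57BL/6, Hnf4a in Winnie-Prolapse had -0.58 ± 0.15 (adjusted p = 0.004), just under 1.5-fold. Klf4 (-0.49 ± 0.26, adjusted p = 0.119), Klf5 (-0.03 ± 0.17, adjusted p = 0.879) and Cdx1 (-0.0058 ± 0.09, adjusted p = 0.96) passed no rule in Winnie-Prolapse against C57BL/6. The same genes of this list were called without replicate 7.

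Markers of the cell types in the tissue moved with the same comparison, and their part in the members' values was not tested. In Winnie-Prolapse against C57BL/6, 0 of 7 epithelial markers were called under either rule by edgeR, DESeq2 or limma-voom, while 3 had an unadjusted p under 0.05 (median 0.24, Krt8 0.19 ± 0.15 and Krt19 0.31 ± 0.14). Of 7 tested surface colonocyte markers 2 fell under the first rule and 4 fell and 1 rose under the second (median -2.04). Slc26a3, the apical chloride and bicarbonate exchanger, fell by 2.55 (SE 0.51, adjusted p = 0.000714 by edgeR) and Car4 by 2.04 (SE 0.72, adjusted p = 0.0255). Goblet cell markers split, with 2 higher and 1 lower of 8 under the first rule, and Muc2 fell under the second (-0.84 ± 0.27, adjusted p = 0.0155) while Fcgbp had -0.95 ± 0.39 (adjusted p = 0.0506). Without replicate 7 the Muc2 call was lost (-0.55 ± 0.19, adjusted p = 0.0209), Fcgbp passed the second rule (-1.08 ± 0.36, adjusted p = 0.0201), and Krt20 of the surface list (1.29 ± 0.23, adjusted p = 0.000313) and Retnlb of the goblet list (7.70 ± 0.68, adjusted p = 6.15e-07) rose under the first. All 5 smooth muscle markers (Myh11 -1.98 ± 0.25, Tagln -1.93 ± 0.21) and all 4 enteric neuron markers (Uchl1 -2.10 ± 0.29, Tubb3 -1.39 ± 0.24) fell under the first rule. Of 8 leukocyte markers 5 rose (Jchain 2.82 ± 0.33, adjusted p = 7.48e-06), Lyz2 rising under the second rule (1.32 ± 0.29), as did all 3 tested of 5 squamous epithelium markers (Krt14 7.35 ± 1.17, Krt5 9.56 ± 1.47). The squamous calls depended on the tool, since limma-voom called 0 of the 3 under the first rule and 1 under the second.

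In Winnie against C57BL/6 the second rule called all 5 smooth muscle and all 4 enteric neuron markers lower and 4 of 7 tested leukocyte markers higher. Of the epithelial lineage lists, the goblet marker Agr2 rose under the first rule (1.55 ± 0.19, adjusted p = 0.000776 by edgeR), and under the second the goblet marker Spink4 (1.07 ± 0.20), the surface marker Krt20 (1.07 ± 0.34) and the dividing cell markers Mki67 (1.22 ± 0.25) and Top2a (1.15 ± 0.23) rose and the crypt base marker Ascl2 fell (-0.65 ± 0.20). The squamous marker Krt13 also rose under the second rule (3.28 ± 0.78). Without replicate 7 the smooth muscle count was 4 of 5, without Myh11 (-0.73 ± 0.28, adjusted p = 0.0639), and the goblet markers Retnlb (6.02 ± 0.80, adjusted p = 0.000886, first rule) and Tff3 (-0.73 ± 0.25, adjusted p = 0.0452, second rule) were called as well as Agr2 and Spink4. Dividing and crypt base markers (6 genes) and enteroendocrine markers (4 genes) gave 1 higher and 1 lower, and 0 higher and 1 lower, under the first rule in Winnie-Prolapse against C57BL/6. In that comparison Mki67 rose under the second rule (1.24 ± 0.27, adjusted p = 0.00117 by edgeR), and Reg4 (-0.45 ± 0.48), Pyy (0.43 ± 0.25) and Chgb (-0.36 ± 0.16) passed no rule, though Reg4 was lower under the second rule without replicate 7 (-0.63 ± 0.23, adjusted p = 0.032). Summed squamous markers ran from 1.51 to 2036 CPM among Winnie-Prolapse libraries (median 229.9), against 1.95 to 2.93 CPM in C57BL/6, and summed leukocyte markers from 1288 to 2467 CPM against 169.9 to 483.8. Summed smooth muscle markers ran from 1143 to 2777 CPM in Winnie-Prolapse and from 5863 to 10503 CPM in C57BL/6.

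For 4 members, the genes most alike were found by Pearson's r of the deviations of log2 CPM from the group means over 22 libraries, among genes with a mean of at least 1 CPM. They are a description without a test, and the libraries share depth and tissue make-up. For Guca2a they were Trpm5 (r = 0.927), Dpep1 (0.919), Slc25a40 (0.91), Rgs17 (0.905) and St3gal3 (0.887), and without C57BL/6 replicate 7 Trpm5 (0.918) and Dpep1 (0.894) stayed among the first 5, which Klk1 (0.929) then led. For Guca2b they were Dzip1 (0.862), Hsd3b7 (0.853), Mmd (0.844), Pth1r (0.833) and Sccpdh (0.828), none of which stayed among the first 5 without replicate 7. For Gucy2c they were Gm5540 (0.769), Pank3 (0.767), Ddi2 (0.719), Mrs2 (0.716) and Abcb6 (0.703), of which only Gm5540 (0.739) and Pank3 (0.713) stayed among the first 5 without replicate 7. For Best2 they were Gm9994 (0.991), Gm11830 (0.96), Sval1 (0.954), Gm6086 (0.954) and Gal3st2 (0.948). Without replicate 7 Gm9994 (0.964) was again highest, then followed by Gal3st2 (0.962) and Gm11830 (0.906).

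Among the members themselves the same measure is given without replicate 7 (21 libraries), as a description without a test. Prkg2 and Slc12a2 had the highest r (0.688), followed by Guca2a and Kcne3 (0.561). Prkg2 and Best2 had the lowest (-0.586, and -0.872 with replicate 7). The hormone and its receptor, Guca2a and Gucy2c, had r = 0.259, the 2 hormones 0.386, and the channel subunits Kcnq1 and Kcne3 0.239. With replicate 7 the r of Guca2a and Best2 turned from 0.517 to -0.283.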

How the data were processed

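The deposited file is a table of raw read counts per gene, which the authors made with the RNAsik pipeline on GRCm38, counting reads with featureCounts. The submitters' processing notes also name STAR and limma. The annotation release, the strand setting and the handling of shared reads are not given in the sources used here. Libraries were stranded and poly(A)-selected. Nothing was normalized or filtered, and no column belonged to another series (0).

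Groups and sexes came from the sample labels. The labels name no batch. Their titles carry a different tag for each library, at least 1 of them a date, and replicates were taken as separate mice. Within each group the closest pair of libraries differed by a chi-square of at least 28.8 per degree of freedom, so no library was taken as a repeat deposit. Each comparison of 2 groups was fitted on their libraries alone with the edgeR 4.0.16 quasi-likelihood test in R 4.3.3 (TMM, filterByExpr with a minimum count of 10) and adjusted by Benjamini-Hochberg over all genes. SE is the log2 fold change divided by the root of F. CPM is scaled to the library total. The script was tested on simulated data. DESeq2 1.42.0, limma-voom 3.58.1, other scalings and filters, sex and each library left out were tried as alternatives. Locations and exon lengths came from GENCODE M21.

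The members and gene lists were chosen with earlier results of these data known. Named genes were all members, the 4 genes of each pathway list with the highest mean CPM and those called where 5 or fewer were, the 2 highest of each marker list, and the 5 genes most alike 4 of the members. A gene that this rule would name is not reported here. Genes called only under the second rule were named after their values were seen. Locus sequences came from RefSeq and GENCODE tables.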

Additional observations from a re-analysis of the deposited data

Results flagged for a closer look

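In a group of 4 to 10 libraries, a value was singled out when its gap to the nearest library took more of the group's range than Dixon's 95% limit. Chance gives about 1 in 20 only for normal values in independent sets, and the sets used here share the same libraries. Of 27 sets of 1 member in 1 group, 6 met this limit. Of these 3 lay in C57BL/6 replicate 7, with Guca2a at 2270 CPM (gap 0.832 of the range), Guca2b at 26.1 CPM (0.818) and Prkg2 at 36.8 CPM (0.985), the library whose Hoxd13, Hoxb13, Hoxd12, Hoxd11 and Hoxd10 levels were below those of the other 21 libraries. Best2 was low in the same library (1.99 CPM) without meeting the limit. The others were Kcnq1 in C57BL/6 replicate 2 (75.5 CPM, 0.566), Kcnq1 in Winnie-Prolapse replicate 4 (50.8 CPM, 0.803) and Kcne3 in Winnie replicate 5 (141.4 CPM, 0.586).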

How the results depend on the processing

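In Winnie-Prolapse against C57BL/6 the number of members called under the first rule, 1 in the reported fit, was 4 at an adjusted p under 0.05, 5 with DESeq2, 0 in males only, 0 in females only, 5 when scaled to epithelial markers and 0 to 2 when 1 library was left out. In Winnie-Prolapse against Winnie it was 1 at an adjusted p under 0.05, and for sex by group in Winnie 1 with DESeq2. Of all genes, DESeq2 called 5043 of 29816 in the first of these and 164 of 30360 in the last. In Winnie-Prolapse against C57BL/6 the fit scaled to epithelial markers called 3517 genes, beside 3186 of 17397 in the reported fit. At an adjusted p under 0.05, 34.4% of genes were called there and 6.99% in Winnie-Prolapse against Winnie. The shares of all genes in the fits within 1 sex are not given. Scaling to epithelial markers moved the median of all genes from -0.01 to -0.28 in Winnie and -0.19 in Winnie-Prolapse against C57BL/6. In Winnie the share of called genes that were higher moved from 93.8% (of 16 genes) to 83.3% (of 12). In Winnie-Prolapse it moved from 53.7% (of 3186) to 31.3% (of 3517). Directions that turned in Winnie against C57BL/6 were Guca2a, Guca2b, Cftr and Prkg2 (0.45, 0.15, 0.0464 and 0.35) without the libraries that stand apart, of which C57BL/6 replicate 7 alone is in this comparison (an alternative chosen after seeing the data), Prkg2 with DESeq2 (0.36) and in males (0.97), Cftr with no filter (0.0105) and in males (0.0193), Slc12a2 scaled to epithelial markers (-0.0033), Best2 with limma-voom (0.38) and in females (0.27), Kcnq1 in males (0.0060) and Kcne3 in females (0.0486). In Winnie-Prolapse against C57BL/6 they were Guca2b in males (0.57) and without that library and Winnie-Prolapse replicate 6 (0.32), and Prkg2 with DESeq2 (2.19), limma-voom (1.01), sex as a covariate (0.33), in males (2.77) and without both libraries (2.40). In Winnie-Prolapse against Winnie they were Guca2a in males (0.0882), Guca2b in females (-0.63), Slc12a2 in males (-0.0459) and Best2 in males (0.0849).

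With 1 library left out, the log2 fold changes that turned ranged in Winnie against C57BL/6 from -0.81 to 0.45 (Guca2a), -0.31 to 0.15 (Guca2b), -3.39 to 0.35 (Prkg2), -0.11 to 0.11 (Cftr) and -0.29 to 0.0807 (Best2), in Winnie-Prolapse against C57BL/6 from -0.27 to 0.21 (Guca2b) and -1.63 to 2.28 (Prkg2), and in Winnie-Prolapse against Winnie from -0.0696 to 0.17 (Guca2b). The Guca2a, Guca2b and Prkg2 turns against C57BL/6 in these fits came from leaving out C57BL/6 replicate 7. Without it and Winnie-Prolapse replicate 6, Cftr (-0.58) and Slc12a2 (0.58) were just under 1.5-fold in Winnie-Prolapse against C57BL/6. The cause was not tested in the other cases. No paired analysis was possible because the labels give no replicate numbers shared between groups. Prkg2 was called lower in Winnie against C57BL/6 under the second rule when scaled to epithelial markers (-3.13, adjusted p = 0.0371 by edgeR) and with all 3 groups in one fit (-3.03, adjusted p = 0.0439). In Winnie-Prolapse against Winnie it was called higher with DESeq2 (1.94, adjusted p = 0.00765), in the bias-adjusted edgeR fit (1.94, adjusted p = 0.0494), which was chosen after seeing the data, and in females (1.61, adjusted p = 0.0414). The second rule also called there Cftr with DESeq2 and with all 3 groups in one fit, Kcnq1 with sex as a covariate, and Slc12a2 and Kcne3 in females. The first rule called, in Winnie-Prolapse against C57BL/6, 5, 2 and 2 genes of the cyclic GMP, chloride and secretagogue lists by edgeR, 7, 3 and 5 by DESeq2 and 4, 1 and 2 by limma-voom. Over all genes, edgeR called 3186 of 17397, DESeq2 5043 of 29816 and limma-voom 3054 of 17397. Prkg2 counts near the floor limit its precision.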
